A study of Mus musculus with 30 samples.

Results

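Genes that mark and specify macrophages were followed in cultured mouse macrophages given ligands of LXR, the liver X receptors, which are nuclear receptors that sense desmosterol and oxidized sterols. The 9 genes comprised 4 receptors and surface or lysosomal proteins, Csf1r, Itgam, Fcgr1 and Cd68, and 5 transcription factors, Spi1, Cebpa, Cebpb, Maf and Irf8. They were chosen by gene symbol, 9 of the 24063 genes in the macrophage count table, and all 9 were among the 11544 genes that passed the filter on low counts. Polyadenylated RNA was sequenced from 18 macrophage libraries, 3 per group, and 12 libraries of primary mouse hepatocytes, 2 per group, which served here as a check of purity. The groups were desmosterol, an intermediate of cholesterol synthesis, at 10 uM, then at 1 uM the mimetics DMHCA and MePipHCA, 2 cholenamides with a dimethyl and a methylpiperidinyl amide, and the synthetic agonists GW3965 and T0901317, and last vehicle (DMSO or ethanol). Macrophages had been elicited into the peritoneum with thioglycollate and were cultured in RPMI with 10% serum, hepatocytes in Hepatozyme with 10% serum. From 24 h before the ligand all groups, vehicle included, were held in lipid-deficient serum with mevastatin at 10 uM, a statin, and mevalonate at 50 uM. The ligand then acted for 18 to 20 h. The labels give no strain, sex or age. They do not say whether the libraries of a group came from separate cultures or animals, so the p-values cover the variation among these libraries alone, and that may be technical.

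As background, macrophages need signals through the CSF1 receptor to survive, and their gene program rests on PU.1, the product of Spi1, which opens enhancers together with C/EBP factors and others of the IRF and MAF families. Csf1r, Itgam, Fcgr1 and Cd68 are classic products of that program. LXR in macrophages is known for raising cholesterol efflux genes and for restraining some inflammatory genes.

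Macrophage libraries held 3862655 to 15685961 exon counts, with at least 9748589 in the desmosterol and vehicle groups and at most 11453003 in the other groups, and hepatocyte libraries held 6627812 to 18626562. Levels are CPM, counts relative to the total of a library, with totals scaled by TMM factors, and levels are set between genes only in RPKM, which also divides by transcript length. A gene is said to have risen or fallen only where the edgeR quasi-likelihood test gave a Benjamini-Hochberg adjusted p below 0.05 over all genes tested, and changes are log2 fold changes ± SE. The macrophage label held up against its markers: the F4/80 gene (Emr1 in this table) averaged 427 CPM in vehicle cells, while 10 hepatocyte markers summed to 1.77 to 1.85 CPM there, with Ttr, Apoa1, Apoc3, Serpina1a, Cyp2e1 and Tat at 0. The LXR target Abca1, a cholesterol exporter, averaged 2802 CPM with MePipHCA and 2086 with DMHCA, against 153 with vehicle.

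Csf1r fell and Irf8 rose with all 5 ligands in macrophages, and the other members depended on the ligand. Itgam fell with 4 ligands and was not called with desmosterol. Fcgr1 rose with 4 ligands and fell with MePipHCA, and Cebpb fell with 4 ligands and was not called with MePipHCA. Maf fell most, to 67.6 ± 1.81 CPM with MePipHCA against 182 ± 8.82 CPM with vehicle (SD, n = 3), and taking each member's largest change over the 5 ligands, those of Cd68 (-0.21) and Spi1 (-0.19) were the smallest.

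Members that rose with desmosterol numbered 2, and 2 fell, where 4.93% of all tested genes were called higher and 4.57% lower. With DMHCA 2 rose and 3 fell (5.8% and 5.9% of all tested genes), and with MePipHCA 2 rose and 5 fell (17.2% and 18.3%). With GW3965 2 rose and 6 fell (6.54% and 6.69%), and with T0901317 2 rose and 4 fell (6.29% and 6.55%). The medians over the 9 members were -0.02, -0.08, -0.16, -0.19 and -0.12 for the ligands in that order, where those over all tested genes lay within -0.00278 and 0.00338. The 5 comparisons share the 3 vehicle libraries, so each is given on its own. With every library thinned to the depth of the shallowest, the same tests called 4, 5, 6, 7 and 6 members, in place of 4, 5, 7, 8 and 6.

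**Figure D1:**
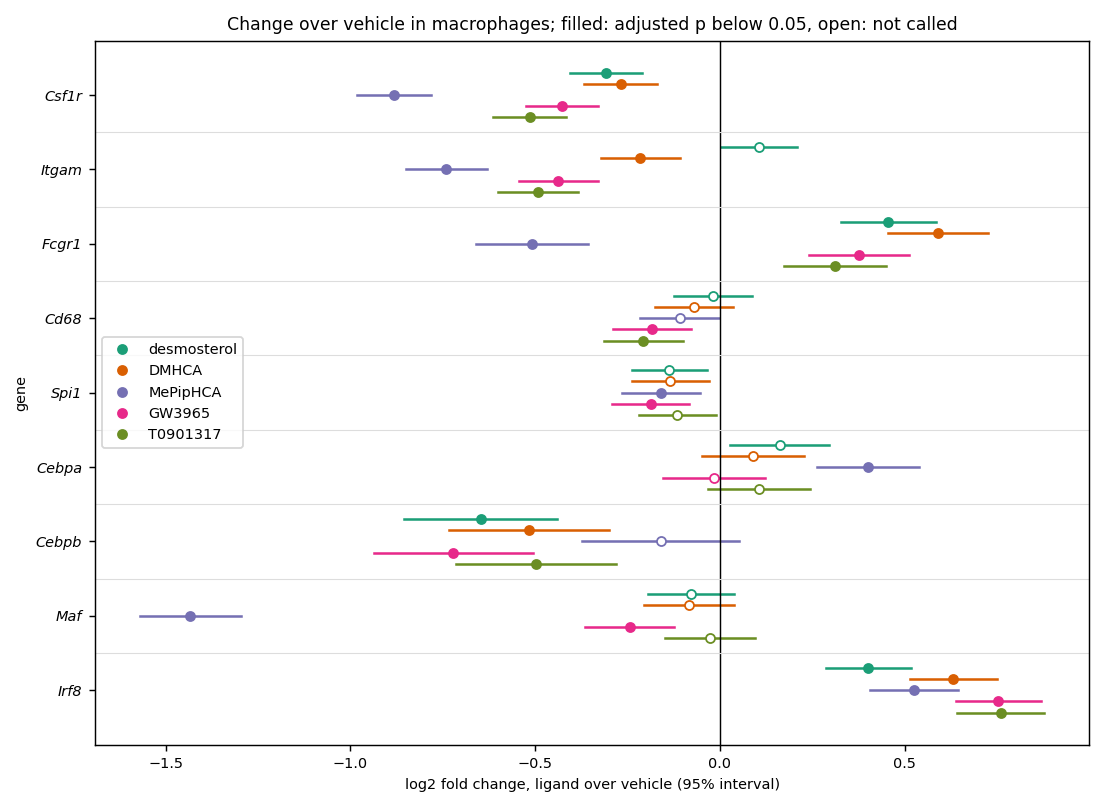
Log2 fold change over vehicle (horizontal axis) of the 9 genes in macrophages, with 95% intervals from the edgeR fit, n = 3 libraries per group. Filled points passed an adjusted p of 0.05: Csf1r lies left of 0 and Irf8 right of 0 for all 5 ligands, and MePipHCA stands apart at Maf (-1.43) and Fcgr1 (-0.51).

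Csf1r encodes the receptor for the growth factors CSF1 and interleukin 34 and lies on mm10 at chromosome 18, 61105572 to 61131139. It stood at 1005.9, 1115.3 and 985.1 CPM with desmosterol, 1062.5, 1022.2 and 1108.5 with DMHCA, 703.6, 685.4 and 699.0 with MePipHCA, 927.8, 980.7 and 951.8 with GW3965, and 955.5, 887.0 and 854.5 with T0901317, against 1270.2, 1297.0 and 1280.0 with vehicle. Every ligand library lay below every vehicle library, and the MePipHCA libraries lay below all others. The log2 fold changes were -0.31 ± 0.05 with desmosterol, -0.27 ± 0.05 with DMHCA, -0.88 ± 0.05 with MePipHCA, -0.43 ± 0.05 with GW3965 and -0.51 ± 0.05 with T0901317. The edgeR adjusted p values were 8.9e-06, 7.8e-05, 1.7e-18, 4.6e-09 and 4e-11 in that order. On this scale Csf1r fell by 45.7% with MePipHCA and by 17.0% with DMHCA.

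Itgam encodes CD11b, the alpha chain of the integrin and complement receptor CR3, and lies at chromosome 7, 128062640 to 128118491. Its levels were 433.1, 473.1 and 497.4 CPM with desmosterol, 359.9, 395.7 and 366.2 with DMHCA, 258.8, 259.9 and 261.2 with MePipHCA, 322.3, 335.8 and 305.3 with GW3965, and 316.6, 306.7 and 305.1 with T0901317, against 424.8, 455.8 and 422.7 with vehicle. The desmosterol libraries overlapped those of vehicle, and the libraries of the other 4 ligands lay below them. Itgam fell by 0.74 ± 0.05 with MePipHCA, by 0.44 ± 0.05 with GW3965 and by 0.49 ± 0.05 with T0901317 (edgeR adjusted p = 8.5e-15, 2e-08 and 1.5e-09). It fell by 0.22 ± 0.05 with DMHCA (adjusted p = 0.0037), a call that was lost without vehicle replicate 2 (adjusted p = 0.0508). With desmosterol the change was 0.11, with a 95% interval of 0.00 to 0.21 (adjusted p = 0.22). An annotated gene on the same strand, Gm49368, has exons within its span, and reads of the 2 cannot be told apart here.

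Fcgr1 encodes the high-affinity Fc receptor CD64 and lies at chromosome 3, 96282909 to 96293969. It stood at 90.4, 96.8 and 98.8 CPM with desmosterol, 100.8, 109.0 and 103.6 with DMHCA, 43.7, 49.8 and 52.2 with MePipHCA, 94.3, 87.0 and 90.1 with GW3965, and 89.3, 87.4 and 83.4 with T0901317, against 68.2, 73.5 and 66.5 with vehicle. The MePipHCA libraries lay below those of vehicle and the libraries of the other 4 ligands above them. Fcgr1 fell by 0.51 ± 0.07 with MePipHCA (edgeR adjusted p = 4.4e-07). It rose by 0.46 ± 0.06 with desmosterol, 0.59 ± 0.07 with DMHCA, 0.38 ± 0.07 with GW3965 and 0.31 ± 0.07 with T0901317 (adjusted p = 9.5e-07, 6.3e-09, 3.7e-05 and 0.00084).

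Cd68 encodes macrosialin, a glycoprotein of late endosomes and lysosomes, and lies at chromosome 11, 69664213 to 69666170. Its levels were 3154.8, 3447.9 and 2873.1 CPM with desmosterol, 2966.6, 3026.9 and 3142.4 with DMHCA, 3105.3, 2960.2 and 2832.0 with MePipHCA, 2811.2, 2844.8 and 2788.7 with GW3965, and 2757.4, 2865.7 and 2687.8 with T0901317, against 2941.7, 3439.0 and 3212.7 with vehicle. The libraries of the synthetic agonists lay just below those of vehicle and the other groups overlapped them. Cd68 fell by 0.18 ± 0.05 with GW3965 and by 0.21 ± 0.05 with T0901317 (edgeR adjusted p = 0.0125 and 0.0042), but without vehicle replicate 2 these calls were lost (adjusted p = 0.177 and 0.0846). With desmosterol, DMHCA and MePipHCA it was not called, at -0.02, -0.07 and -0.11. The MePipHCA value passed without vehicle replicate 1 (adjusted p = 0.0167), with upper quartile scaling (0.0341), with no filter (0.0309) and with only the compared groups in the fit (0.0148).

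**Figure D2:**
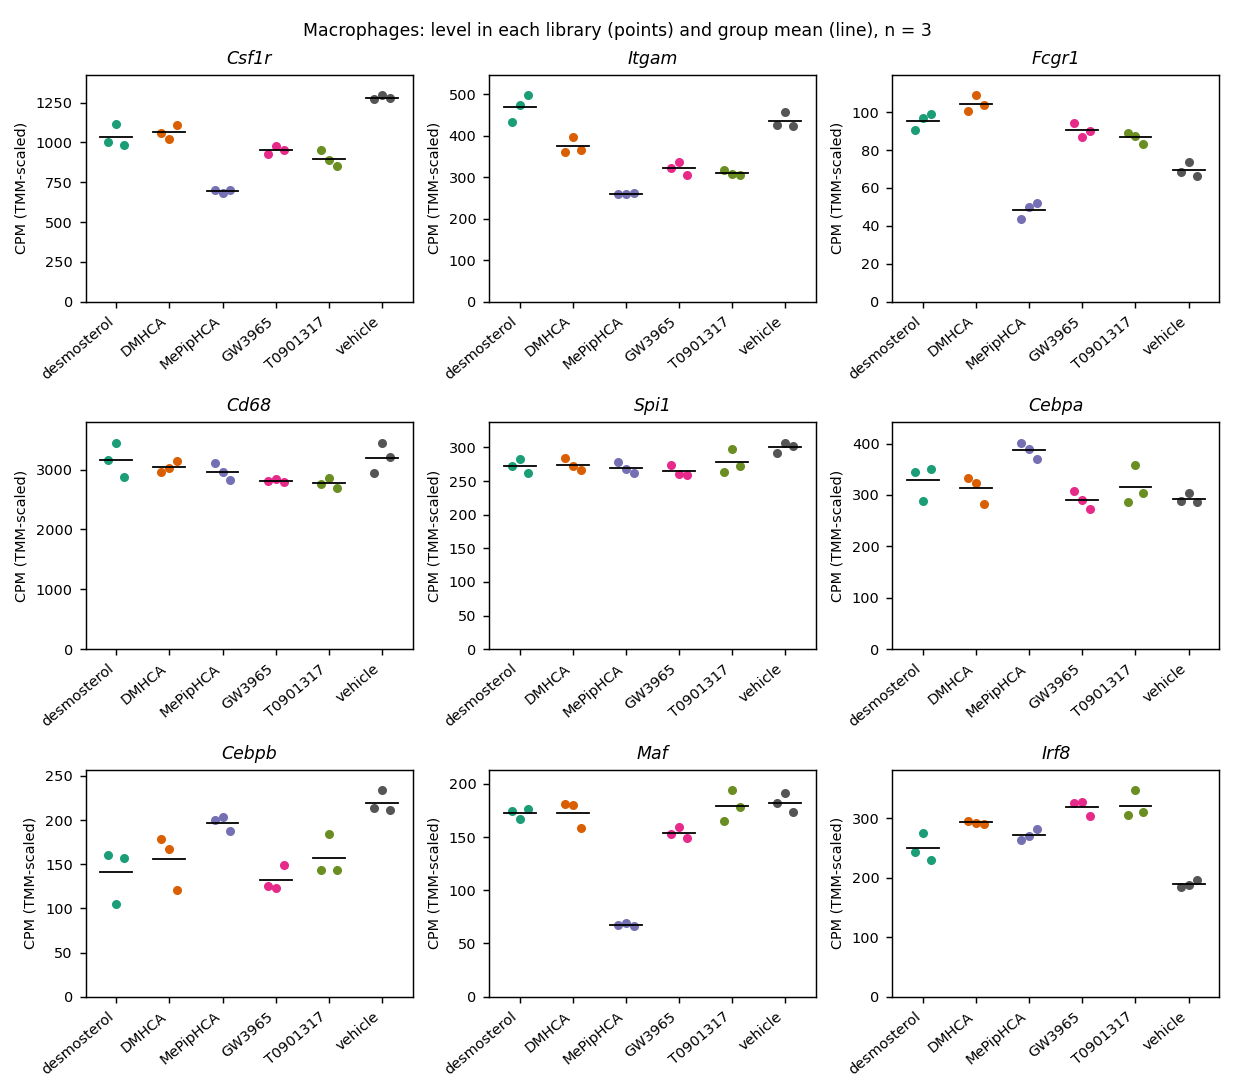
Level in CPM (vertical axes, from 0) of the 9 genes in each of the 18 macrophage libraries (points) with the mean of each group (line, n = 3). The 3 MePipHCA libraries of Maf lie between 66.0 and 69.6 CPM, where the vehicle libraries lie between 173.4 and 191.0 CPM.

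Promoter sequences are shown for Itgam, Fcgr1 and Cd68 because the letters of PU.1 and C/EBP sites can be read in them. Each window is the 250 bases before the annotated start from RefSeq on GRCm38.p6, written 5′ to 3′ on the gene's strand. Windows of 6 of the 9 members were searched, 7 in all, and those of Csf1r, Spi1 and Maf were not searched. Capitals mark a match to the PU.1 core GAGGAA or, in Cd68, the C/EBP letters TTGCNNAA, searched on both strands, and no match overlaps another. A match on the opposite strand reads TTCCTC in the window. The windows lie at chr7:128062390-128062639 (plus strand) for Itgam, chr3:96293970-96294219 (minus strand) for Fcgr1 and chr11:69666171-69666420 (minus strand) for Cd68.
Itgam: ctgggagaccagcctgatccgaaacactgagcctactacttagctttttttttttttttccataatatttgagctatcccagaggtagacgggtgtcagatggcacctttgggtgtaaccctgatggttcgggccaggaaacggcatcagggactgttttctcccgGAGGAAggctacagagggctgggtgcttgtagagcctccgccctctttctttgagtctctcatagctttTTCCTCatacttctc
Fcgr1: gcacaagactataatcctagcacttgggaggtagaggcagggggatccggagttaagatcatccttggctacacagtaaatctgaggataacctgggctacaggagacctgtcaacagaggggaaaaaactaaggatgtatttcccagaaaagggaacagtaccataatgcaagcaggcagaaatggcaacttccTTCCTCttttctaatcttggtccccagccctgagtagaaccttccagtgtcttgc
Cd68: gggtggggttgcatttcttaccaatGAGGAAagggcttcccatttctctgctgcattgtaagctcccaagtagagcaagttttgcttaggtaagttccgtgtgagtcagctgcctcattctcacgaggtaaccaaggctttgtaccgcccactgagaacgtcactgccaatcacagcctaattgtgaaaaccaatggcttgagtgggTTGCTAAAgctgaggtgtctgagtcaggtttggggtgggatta
Itgam held the PU.1 core on the gene's strand at 84 to 79 bases before the start and on the opposite strand at 15 to 10 bases. Fcgr1 held it on the strand opposite to the gene, as TTCCTC in the window, at 55 to 50 bases, and Cd68 held it at 225 to 220 bases with the C/EBP letters at 43 to 36 bases. Of 32851 promoter windows of the same length, 23.3% held the PU.1 core and 9.56% the C/EBP letters. No window of Cebpa, Cebpb or Irf8 held either, and none of the 7 windows held the Maf half-site TGCTGAC (3.81% of all windows), the interferon response element of GAAA repeated after any 2 bases (2.98%) or the LXR element of AGGTCA repeated after any 4 bases (0.0152%). A match is a string of letters and says nothing of binding in these cells.

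Spi1 encodes PU.1 and lies at chromosome 2, 91096797 to 91115756. It had 273.0, 283.4 and 262.5 CPM with desmosterol, 284.2, 272.4 and 266.2 with DMHCA, 278.1, 267.5 and 261.8 with MePipHCA, 273.9, 260.5 and 258.6 with GW3965, and 263.5, 296.9 and 272.8 with T0901317, against 291.7, 307.0 and 302.4 with vehicle. All libraries of 4 ligands lay below the vehicle libraries, by a small margin, and T0901317 overlapped them. Spi1 fell by 0.16 ± 0.05 with MePipHCA and by 0.19 ± 0.05 with GW3965 (edgeR adjusted p = 0.0142 and 0.0094). Both calls were lost without vehicle replicate 2 (0.0608 and 0.0569) and at 1 depth (0.201 and 0.288). The MePipHCA call was also lost without MePipHCA replicate 3 (0.0981) and the GW3965 call without GW3965 replicate 2 (0.0547) or 3 (0.0555). With desmosterol, DMHCA and T0901317 it was not called, at -0.14, -0.13 and -0.12. The desmosterol value passed without desmosterol replicate 2 (0.0439) and the T0901317 value without T0901317 replicate 2 (0.0470).

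Cebpa and Cebpb encode C/EBP-alpha, needed for myeloid commitment, and C/EBP-beta, an inducible factor of macrophage activation. Cebpa (chromosome 7, 35119293 to 35121928) had 401.7, 389.6 and 369.6 CPM with MePipHCA against 287.8, 303.6 and 287.2 with vehicle. These libraries did not overlap, and Cebpa rose by 0.40 ± 0.07 (edgeR adjusted p = 7.1e-06). In the other ligand groups it ranged from 272.4 to 358.6 CPM, around the vehicle libraries, and no call was made. The desmosterol value of 0.16 (adjusted p = 0.129) passed without desmosterol replicate 2 (0.0039) or with no filter (0.0468).

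Cebpb (chromosome 2, 167688915 to 167690432) had 160.3, 104.8 and 157.5 CPM with desmosterol, 178.4, 167.6 and 121.1 with DMHCA, 199.7, 203.8 and 187.4 with MePipHCA, 125.2, 122.9 and 149.2 with GW3965, and 143.3, 184.2 and 143.9 with T0901317, against 213.2, 233.7 and 211.6 with vehicle. All ligand libraries lay below the vehicle libraries, and the spread within the desmosterol and DMHCA groups was wide, at 31.3 and 30.4 CPM (SD). Cebpb fell by 0.65 ± 0.10 with desmosterol, 0.52 ± 0.11 with DMHCA, 0.72 ± 0.11 with GW3965 and 0.50 ± 0.11 with T0901317 (edgeR adjusted p = 1.1e-05, 0.00058, 1.4e-06 and 0.00066). With MePipHCA the change was -0.16 ± 0.11 and was not called (adjusted p = 0.251), though it passed with no filter (0.0218) and with only the compared groups in the fit (0.0071). Cebpb overlaps Tmem189 on the opposite strand and Cebpa the antisense gene Gm45091, and the counting is not stated to use strand.

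Maf encodes c-Maf, a factor of mature macrophages and of interleukin 10 expression, and lies at chromosome 8, 115703253 to 115706894. It had 174.6, 167.2 and 176.4 CPM with desmosterol, 180.7, 179.7 and 158.1 with DMHCA, 67.4, 69.6 and 66.0 with MePipHCA, 153.3, 159.6 and 149.3 with GW3965, and 164.6, 193.9 and 178.5 with T0901317, against 182.1, 191.0 and 173.4 with vehicle. The MePipHCA libraries stood far below all others, the GW3965 libraries just below those of vehicle, and the rest overlapped vehicle. Maf fell by 1.43 ± 0.07 with MePipHCA, or by 63.0% (edgeR adjusted p = 5.2e-21), and by 0.24 ± 0.06 with GW3965 (adjusted p = 0.0029). With desmosterol, DMHCA and T0901317 it was not called, at -0.08, -0.08 and -0.03, with 95% intervals of -0.19 to 0.04, -0.20 to 0.04 and -0.15 to 0.09. The antisense gene Gm15655 has exons within its span.

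Irf8, which encodes an interferon regulatory factor that partners PU.1 in monocytes and dendritic cells, lies at chromosome 8, 120736376 to 120756692. It had 242.6, 274.2 and 230.4 CPM with desmosterol, 295.5, 291.8 and 290.6 with DMHCA, 263.1, 269.6 and 281.6 with MePipHCA, 325.5, 327.8 and 303.1 with GW3965, and 305.4, 346.8 and 309.5 with T0901317, against 184.0, 187.1 and 195.4 with vehicle. Every ligand library lay above every vehicle library. Irf8 rose by 0.40 ± 0.06, 0.63 ± 0.06, 0.53 ± 0.06, 0.75 ± 0.06 and 0.76 ± 0.06 in that order (edgeR adjusted p = 1.3e-06, 2.8e-11, 9.9e-10, 7.1e-14 and 7.6e-14). Dendritic cells also express it, and 7 of their markers summed to 1.08 to 2.98 CPM over all ligand libraries, against 2.21 to 2.50 CPM with vehicle.

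Ligands given at 1 uM were compared with each other in 6 pairs, and p-values of a gene were also adjusted over the 6 pairs. MePipHCA and DMHCA, whose amide groups are methylpiperidinyl and dimethyl, differed in 6 members, 2 higher and 4 lower with MePipHCA, where 22.9% of all tested genes were called. Relative to DMHCA, MePipHCA gave lower levels of Maf (-1.35 ± 0.07), Fcgr1 (-1.10 ± 0.08), Csf1r (-0.61 ± 0.05) and Itgam (-0.53 ± 0.06), with p adjusted over the pairs of 2.6e-21, 1.4e-16, 2.3e-14 and 6.6e-11. Cebpa (0.31 ± 0.07) and Cebpb (0.36 ± 0.11) were higher with MePipHCA (adjusted over the pairs 0.00022 and 0.0094). The Cebpb difference was lost in DESeq2 (adjusted p = 0.158), at 1 depth (0.0759), without DMHCA replicate 3 (0.287) and without MePipHCA replicate 1 (0.0577) or 2 (0.0713). Differences in Spi1, Cd68 and Irf8 were not called, with 95% intervals of -0.14 to 0.08, -0.15 to 0.07 and -0.23 to 0.01.

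MePipHCA differed from each synthetic agonist in 7 members, 2 higher and 5 lower (25.7% of all tested genes against GW3965 and 25.9% against T0901317). Maf was lower by -1.19 ± 0.07 against GW3965 and -1.41 ± 0.07 against T0901317, and Fcgr1 by -0.89 ± 0.08 and -0.82 ± 0.08. Csf1r was lower by -0.45 ± 0.05 and -0.37 ± 0.05, Itgam by -0.30 ± 0.06 and -0.25 ± 0.06, and Irf8 by -0.23 ± 0.06 and -0.24 ± 0.06. Cebpa was higher by 0.42 ± 0.07 and 0.29 ± 0.07, and Cebpb by 0.56 ± 0.11 and 0.34 ± 0.11. The Cebpb call against T0901317 (edgeR adjusted p = 0.0227) was lost in DESeq2 (0.166), without MePipHCA replicate 1 (0.0663) or 2 (0.0809) and without T0901317 replicate 1 (0.0967) or 3 (0.158).

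DMHCA lay above GW3965 in 1 member, Itgam (0.22 ± 0.05, edgeR adjusted p = 0.00996), where 3.39% of all tested genes were called. That call was lost at 1 depth (0.0789), without DMHCA replicate 2 (0.140) and without GW3965 replicate 3 (0.114). Csf1r was not called, at 0.16 (95% interval 0.06 to 0.26, adjusted p = 0.0656) and passed with upper quartile scaling (0.0484) and with only the compared groups in the fit (0.0425). DMHCA lay above T0901317 in 3 members (5.12% of all tested genes), Csf1r (0.25 ± 0.05), Itgam (0.28 ± 0.06) and Fcgr1 (0.28 ± 0.07), with adjusted p of 0.00085, 0.00078 and 0.0103. The Fcgr1 call was lost at 1 depth (0.139), without DMHCA replicate 2 (0.0741) and without T0901317 replicate 3 (0.0949). GW3965 and T0901317 differed in 0 members, and edgeR called 0.0173% of all tested genes, 2 genes, with 718 at an unadjusted p below 0.05 and 2 by DESeq2. The widest interval among members was that of Cebpb, -0.45 to 0.01, and Maf, the 1 member with an unadjusted p below 0.05, stood at -0.22 (-0.34 to -0.09, adjusted p = 0.5, and 0.0019 over the pairs). DESeq2 called 0 members in this pair. Desmosterol was given at 10 uM and was not compared with the others.

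**Figure D3:**
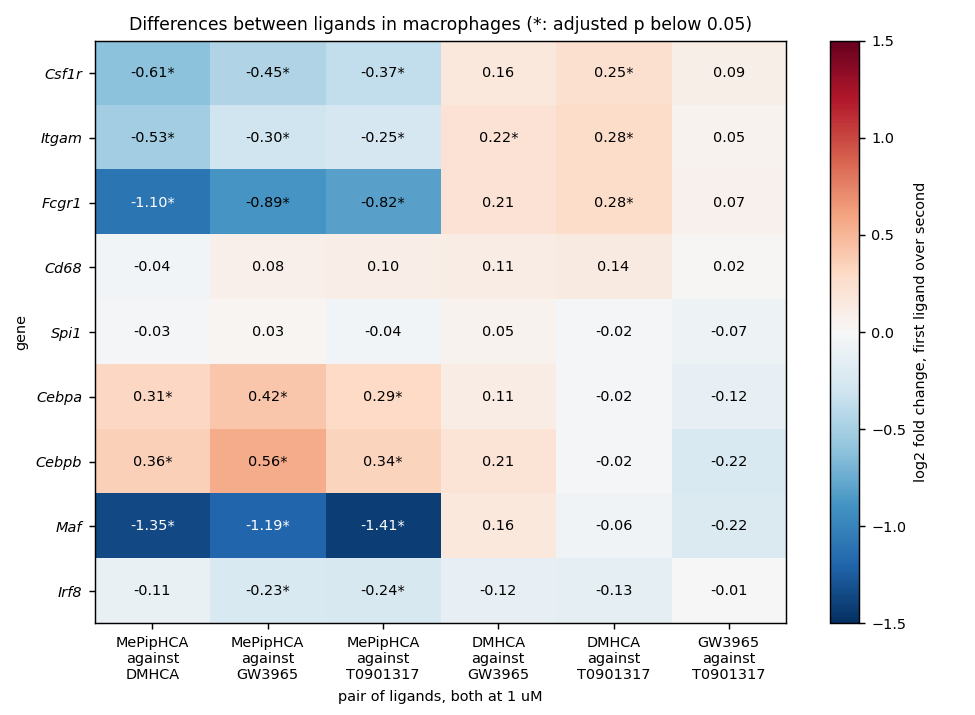
Log2 fold change between ligands, first over second, of the 9 genes (rows) for the 6 pairs at 1 uM (columns) in macrophages. Stars mark an adjusted p below 0.05: the 3 MePipHCA columns hold the lowest values, at Maf (-1.41 to -1.19), and the column of GW3965 against T0901317 has none.

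Related genes gave the surroundings of these changes. Of 25 tested lineage transcription factors outside the 9, 3 were higher and 5 lower with desmosterol, 5 and 5 with DMHCA, 6 and 11 with MePipHCA, 4 and 8 with GW3965 and 5 and 6 with T0901317. The shares of all tested genes called higher and lower with each ligand, given with the members' counts, apply to each list. With MePipHCA they were 17.2% and 18.3%, and the 6 higher genes lie near the first. Irf1, an interferon-induced factor, fell by 1.11 ± 0.09 with MePipHCA, and Egr1, an immediate early gene, by 1.43 ± 0.19. Gata6, the factor of resident peritoneal macrophages, fell by 1.96 ± 0.24 with MePipHCA and by 0.96 ± 0.20 with DMHCA. The median of this list was -0.17 with MePipHCA, where that of all tested genes was 0.00338.

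In the CSF1 and CSF2 cytokine axis 7 genes were tested, of which 2 rose with each ligand and 1, 3, 5, 2 and 2 fell. Csf2rb, the shared beta chain of the receptors for GM-CSF, interleukin 3 and interleukin 5, rose by 0.29 ± 0.05, 0.53 ± 0.05, 1.02 ± 0.05, 0.98 ± 0.05 and 0.86 ± 0.05 for desmosterol, DMHCA, MePipHCA, GW3965 and T0901317, and its near-identical copy Csf2rb2 rose with it, so reads may be split between them. Csf1, the ligand of the Csf1r product, averaged 10.4 ± 2.84 CPM with MePipHCA and 16.2 ± 2.15 CPM with DMHCA, against 26.0 ± 3.05 CPM with vehicle, and fell by 1.35 ± 0.16 and 0.68 ± 0.14. Adam17, the protease that sheds CSF1R, fell by 0.61 ± 0.06 with T0901317 and by 0.45 ± 0.06 with GW3965.

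Of 10 other Fc receptors and adaptors 9 fell and 0 rose with MePipHCA, at a median of -0.44. With desmosterol 1 rose and 2 fell, with DMHCA 1 and 4, and with each synthetic agonist 2 and 6. Fcgr2b, the inhibitory Fc receptor, fell by 0.78 ± 0.06 with MePipHCA, 0.23 ± 0.06 with DMHCA and 0.37 ± 0.06 with desmosterol. Fgr, a Src family kinase, rose by 0.60 ± 0.06 with GW3965 and 0.60 ± 0.07 with T0901317. Fcer1g, the signalling chain that Fcgr1 needs, fell by 0.46 ± 0.08 with MePipHCA and by 0.25 ± 0.08 with DMHCA, a ligand with which Fcgr1 rose.

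Of 9 tested leukocyte integrins other than Itgam, 1 was called higher and 1 lower with desmosterol, 2 and 3 with DMHCA, 1 and 5 with MePipHCA, and 2 and 4 with each synthetic agonist. Itgb2, the CD18 chain that pairs with CD11b, fell by 0.59 ± 0.05 with MePipHCA, to 1593 CPM against 2390.0 CPM with vehicle, and by 0.27 ± 0.05 with T0901317. Itgal, the CD11a chain, fell with all 5 ligands, by 0.27 ± 0.08 with desmosterol and by 1.08 ± 0.10 with T0901317. Itga6, a laminin receptor chain, rose with all 5, by 0.86 ± 0.06 with desmosterol and 0.58 ± 0.06 with T0901317.

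Among 18 tested surface and lysosomal markers, 5 were called higher and 1 lower with desmosterol, 5 and 2 with DMHCA, 4 and 7 with MePipHCA, 5 and 4 with GW3965 and 2 and 6 with T0901317. With MePipHCA the 4 higher genes lie near the 17.2% of all tested genes called higher. Emr1, the gene of F4/80, fell by 1.12 ± 0.05 with MePipHCA, while Mertk, a receptor for apoptotic cells, rose by 0.56 ± 0.05 with it. Of 10 tested markers of resident macrophages, Cd5l, a secreted scavenger protein and known LXR target, rose with all 5 ligands (2.20 ± 0.07 with T0901317). It was the 1 gene of that list to rise, and Siglec1, a sialic acid receptor, fell with all 5, by 1.30 ± 0.08 with MePipHCA. These lists, like the members, were drawn up with earlier results of these data known, and their counts are descriptions.

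**Figure D4:**
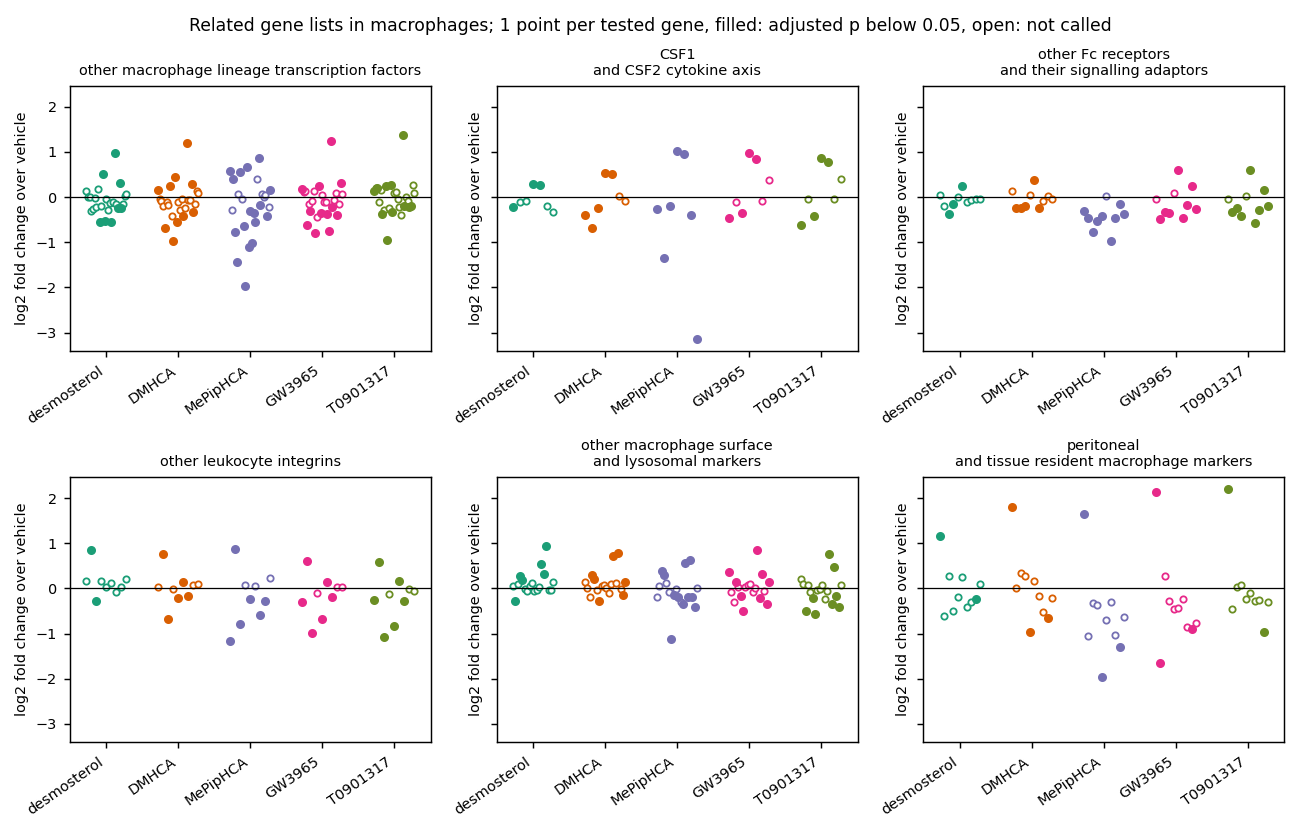
Log2 fold change over vehicle (vertical axis) of each tested gene of the 6 related lists in macrophages, by ligand (horizontal axis), 1 point per gene, filled where the adjusted p was below 0.05. With MePipHCA, 9 of the 10 Fc receptor and adaptor genes are filled and lie below 0.

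Summed markers of stellate cells and fibroblasts and of mesothelial cells were lower with MePipHCA and DMHCA, and the former also with GW3965. With MePipHCA, the sums of endothelial cells, eosinophils, mast cells, B cells, T and NK cells and dendritic cells overlapped those of vehicle. The Kupffer cell and hepatocyte sums lay below those of vehicle with this ligand. In bulk RNA, fewer cells of a type and less RNA per cell cannot be told apart. The 8 markers of stellate cells and fibroblasts, 6 of them tested, summed to 80.3 to 97.4 CPM with MePipHCA, 145 to 206 CPM with DMHCA, 218 to 224 CPM with GW3965, 232 to 294 CPM with desmosterol and 259 to 339 CPM with T0901317, against 245 to 310.5 CPM with vehicle, with no marker at 0. The 5 mesothelial markers summed to 7.78 to 9.83 CPM with MePipHCA, 16.0 to 21.1 CPM with DMHCA, 16.2 to 22.4 CPM with GW3965, 23.1 to 32.8 CPM with desmosterol and 21.3 to 27.0 CPM with T0901317, against 22.4 to 28.4 CPM with vehicle, again with none at 0. The proliferation gene Mki67 stood at 2.35 to 3.46 CPM with MePipHCA, against 14.4 to 16.4 CPM with vehicle. With DMHCA (10.2 to 13.9 CPM) and GW3965 (9.76 to 12.8 CPM) it also lay below the vehicle libraries. With desmosterol (15.8 to 17.8 CPM) and T0901317 (9.64 to 14.8 CPM) it overlapped them. Neutrophils carry CD11b as well, and their 6 listed markers summed to 6.45 to 9.10 CPM with MePipHCA, against 7.60 to 9.60 CPM with vehicle, with S100a9, Mpo and Retnlg at 0 in both groups. The part of these shifts in the changes of Csf1r, Itgam, Fcgr1 and Maf was not tested. Nor was their part in the falls of Csf1 and Gata6 with MePipHCA and DMHCA.

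Across the 18 macrophage libraries, which share groups and differ in depth, log2 CPM of Csf1r followed that of Itgam (r = 0.84) and Maf (r = 0.80), and Fcgr1 followed Maf (r = 0.82). Without the 3 MePipHCA libraries these values were 0.68, 0.24 and -0.29 over 15 libraries. Other values of Maf moved the opposite way without them, to 0.69 with Spi1, 0.70 with Cebpb and 0.60 with Cebpa, against 0.35, -0.25 and -0.65 over all 18. Csf1r and Irf8 ran opposite, at -0.53 over 18 libraries and -0.84 over 15. Genes with the pattern most like Csf1r were Samhd1 (r = 0.96), Cat, Lpcat2, Glul and Tnfrsf1b, of which 1, Tnfrsf1b, was among the nearest 5 without MePipHCA. Nearest to Itgam were Alox5ap (0.97), H3f3b, Ugt1a7c, Ugt1a6b and Ugt1a1, where the Ugt1a genes share exons and are not independent, and 2 of the 5 were retained. Nearest to Maf were Themis2 (0.98), C5ar1, Pdxk, Tnfrsf21 and Coro1a, and 0 of the 5 were retained.

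Levels per transcript length ordered the members in vehicle macrophages as Cd68 (2262 ± 147 RPKM), Csf1r (292 ± 0.83), Spi1 (199 ± 2.94), Cebpb (127 ± 5.59), Cebpa (97.5 ± 1.94), Itgam (81.9 ± 2.51), Irf8 (58.8 ± 1.92), Maf (43.9 ± 1.80) and Fcgr1 (23.6 ± 0.98), where errors are SD over 3 libraries. The ranges of neighbours in this order did not overlap. With MePipHCA Maf stood at 16.1 ± 0.34 RPKM and Fcgr1 at 16.3 ± 1.43 RPKM, with overlapping libraries at the foot of the order.

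Hepatocytes gave the check of purity. They were kept in another medium and their titles bear another date than those of macrophages, so cell type, medium and date cannot be told apart, and no test was made between the cell types. Csf1r stood at 292 RPKM in vehicle macrophages against 0.542 in vehicle hepatocytes, Itgam at 81.9 against 0.245, Fcgr1 at 23.6 against 0.214, and Spi1 at 199 against 0.215. Spi1 in hepatocytes rested on 9 counts, all in 1 of the 2 vehicle libraries. These hepatocyte levels came to 0.186%, 0.300%, 0.908% and 0.108% of those in macrophages. Maf (43.9 RPKM in macrophages against 0.834 in hepatocytes) and Irf8 (58.8 against 0.66) followed. RPKM of Irf8 rested on the same transcript in both cell types, listed at 2816 and 2834 bases. Only its raw counts in hepatocytes were on another transcript. Itgam was on another transcript in hepatocytes, of 4647 bases against 4650 in macrophages.

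Cebpa and Cebpb also serve in hepatocytes. Cebpb stood at 127 RPKM in macrophages against 95.5 in hepatocytes, 75.2% of the macrophage level, and Cebpa at 97.5 RPKM in macrophages against 23.2 in hepatocytes, 23.7% of that level. Cd68 did not go with Csf1r, Itgam and Fcgr1: it stood at 2262 RPKM in macrophages against 148 in hepatocytes, 6.56% of the macrophage level. The 8 Kupffer cell markers, of the liver's resident macrophages, summed to 72.7 to 82.5 CPM in vehicle hepatocytes, with Timd4 at 0. Of these, Clec4f averaged 1.35 CPM and Cd5l 1.15 CPM, and the F4/80 gene, outside this list, averaged 2.54 CPM. The ratio of Cd68 to Csf1r in CPM was 32.2 to 198 over all hepatocyte libraries, against 2.32 to 4.41 over all macrophage libraries. Whether Cd68 counts in the hepatocyte libraries came from hepatocytes was not tested.

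**Figure D5:**
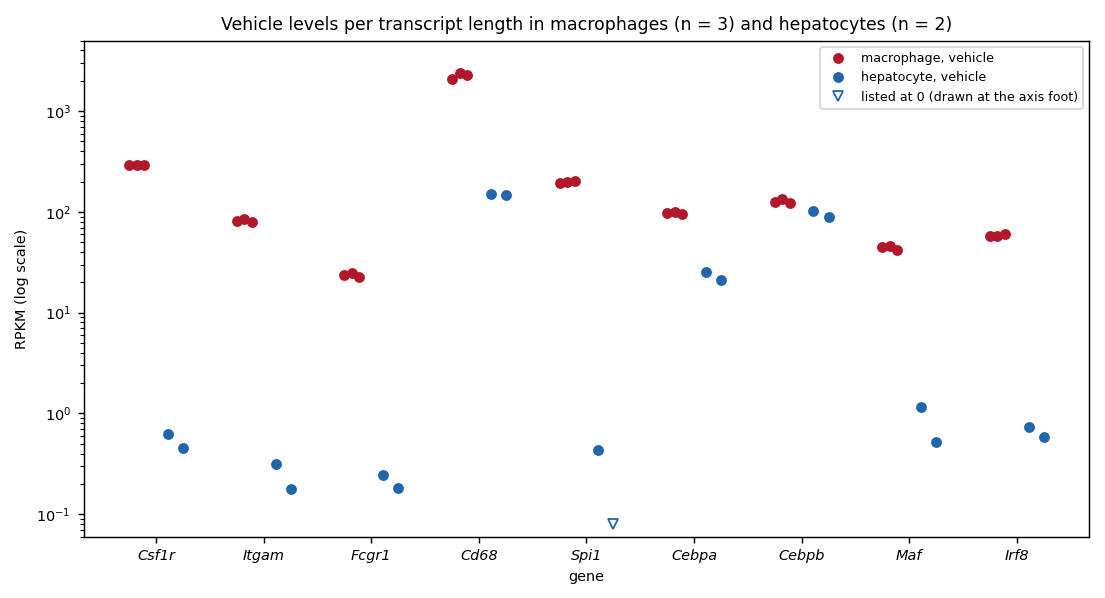
Deposited RPKM (vertical log axis) of the 9 genes in the vehicle libraries of macrophages (left of each pair, n = 3) and hepatocytes (right, n = 2). Csf1r, Itgam, Fcgr1, Spi1, Maf and Irf8 lie at or below 1.151 RPKM in hepatocytes, while Cebpa, Cebpb and Cd68 lie between 21.0 and 149.8 RPKM.

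In hepatocytes 7 of the 9 members could be tested, without Spi1 and Fcgr1, and 0 were called with any ligand, by edgeR or by DESeq2. Of all 13176 genes tested there edgeR called 0.364% with desmosterol, 2.17% with MePipHCA, 0.478% with GW3965 and 0.941% with T0901317. With DMHCA it called 0% (0 genes, with 615 at an unadjusted p below 0.05 and 0 by DESeq2). Unadjusted p-values below 0.05 among members were those of Cebpa with DMHCA (0.0386), Csf1r (0.0047) and Cebpb (0.0208) with GW3965, and Cebpb (0.0163) and Itgam (0.0158) with T0901317. The Itgam value rested on 4 and 0 counts with T0901317, against 23 and 7 with vehicle. Csf1r had 8.30 and 6.28 CPM with GW3965 against 2.96 and 2.27 with vehicle, a change of 1.45 (95% interval 0.48 to 2.42, adjusted p = 0.253). In the same libraries the Kupffer cell gene Clec4f had 7.75 to 13.3 CPM with GW3965 against 0.605 to 2.10 CPM with vehicle, and Cd5l averaged 12.6 CPM with GW3965 against 1.15 CPM with vehicle. The 8 Kupffer cell markers summed to 85.1 to 101.4 CPM with GW3965 against 72.7 to 82.5 CPM with vehicle (means 93.2 and 77.6 CPM). Clec4f (means 10.5 and 1.35 CPM) and Cd5l, a known LXR target, together gained more than this sum did. The other markers of the list together were not higher in mean, and which cells they came from was not tested. The F4/80 gene had 1.92 to 2.51 CPM with GW3965 against 2.12 to 2.96 CPM with vehicle. The part of these shifts in the Csf1r value was not tested. Cebpb had 125.4 and 159.6 CPM with T0901317 against 188.6 and 174.0 with vehicle, a change of -0.35 that passed with no filter (adjusted p = 0.0291). With 2 libraries per group these intervals are wide, and the values do not show that hepatocyte levels stayed the same.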

How the data were processed

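Polyadenylated RNA of mouse macrophages (18 libraries) and hepatocytes (12 libraries) was sequenced from dUTP-marked libraries, per the labels' protocols. The submitters' processing notes name STAR, HOMER and mm10, without versions. The deposited count tables hold raw counts over the exons of 1 transcript per gene, with libraries not pooled, per the file headers. The deposited RPKM tables hold RPKM values that, per the file headers, are scaled by transcript length and depth. They served only to set levels between genes and between cell types. No per-sample column lacked a labelled sample (0 in each table).

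Counts were tested in edgeR 4.0.16 (R 4.3.3): filterByExpr by group, TMM scaling and a quasi-likelihood fit with 1 mean per group on the 6 groups of a cell type (12 residual degrees of freedom in macrophages, 6 in hepatocytes). P-values were Benjamini-Hochberg adjusted over all genes tested (11544 and 13176), and called below 0.05 at any fold change. The SE is the log2 fold change over the root of the F statistic. Scripts were tested on simulated data. Named genes were the 9 members, up to 4 called genes with the largest change per list and comparison, and the 5 genes of mean CPM of at least 10 with the highest Pearson r to Csf1r, Itgam or Maf on log2 CPM (prior count 2). A gene named for 1 ligand may be given for the others. The members and lists were chosen with earlier results of these data known. Alternatives were RLE and upper quartile scaling, no filter, 1 depth, only the compared groups, DESeq2 1.42.0, a replicate block, CPM for RPKM and leaving out each library. Some genes that the rule names are not reported here.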

Additional observations from a re-analysis of the deposited data

Results flagged for a closer look

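With some ligands, named here, all ligand libraries of Fcgr1, Csf1r or Cd68 lay on one side of the vehicle libraries in macrophages and on the opposite side in hepatocytes. This held for 1 member with desmosterol, 2 with DMHCA, 0 with MePipHCA, 2 with GW3965 and 2 with T0901317. Of 11296 genes, tested in macrophages and with counts in hepatocytes, 4.64%, 4.21%, 6.25%, 4.75% and 4.69% showed such a split with these ligands in that order. The difference between the cell types was not tested. Values are log2 ratios of mean CPM over vehicle.

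Fcgr1 gave 0.458 in macrophages and -2.47 in hepatocytes with desmosterol, 0.59 and -2.81 with DMHCA, 0.383 and -0.978 with GW3965, and 0.321 and -1.3 with T0901317. The hepatocyte values rest on 4, 3, 11 and 8 counts over both libraries with these ligands in that order, against 14 with vehicle. Csf1r gave -0.269 in macrophages and 0.281 in hepatocytes with DMHCA, and -0.428 and 1.48 with GW3965, where the hepatocyte sums were 92 and 230 counts, against 53 with vehicle. In the hepatocyte libraries with GW3965 the 8 Kupffer cell markers summed to 85.1 to 101.4 CPM, against 72.7 to 82.5 CPM with vehicle. Among them Clec4f had 7.75 to 13.3 CPM, against 0.605 to 2.10 CPM, and Cd5l, a known LXR target, averaged 12.6 against 1.15 CPM. These 2 together gained more in mean than the sum did. The other markers together were not higher, and which cells they came from was not tested. The part of these shifts in the Csf1r value was not tested. Cd68 gave -0.207 in macrophages and 0.135 in hepatocytes with T0901317.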

How the results depend on the processing

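No member value past the threshold changed sign under any setting. Of the member values, 16 changed side of the threshold under other settings (9 gained and 7 lost) and 23 when 1 library was left out (4 gained and 19 lost), all given beside the results. The number of members called moved by over 1.5 times only for DMHCA against GW3965 (1 gene), with 2 under upper quartile scaling, 2 with only the compared groups, 0 at 1 depth and 0 to 1 when 1 library was left out, and for T0901317 in hepatocytes (0 genes), with 1 without the filter. The Cd68 ratio of macrophages to hepatocytes was 13.9 in CPM, against 15.2 in RPKM. Without the MePipHCA libraries 1, 2 and 0 of the nearest 5 genes of Csf1r, Itgam and Maf were kept.

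Counts over all genes depended on depth: thinned to 1 depth, macrophage calls were 572 with desmosterol, 743 with DMHCA, 2633 with MePipHCA, 920 with GW3965 and 949 with T0901317, in place of 1097, 1350, 4091, 1527 and 1482. Between ligands they were 1616 for MePipHCA against DMHCA, 188 for DMHCA against GW3965, 307 for DMHCA against T0901317, 1821 for MePipHCA against GW3965, 1942 for MePipHCA against T0901317 and 1 for GW3965 against T0901317, in place of 2639, 391, 591, 2967, 2995 and 2. This last count was 15 with no filter and 8 with only the compared groups. Leaving out 1 library gave 665 to 1042 calls with desmosterol and 898 to 1205 with DMHCA, both lowest without vehicle replicate 2, 336 to 495 for DMHCA against T0901317, lowest without DMHCA replicate 3, and 0 to 2 for GW3965 against T0901317.

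In hepatocytes the counts with no filter were 139 with desmosterol, 22 with DMHCA, 163 with GW3965 and 256 with T0901317, in place of 48, 0, 63 and 124. With only the compared groups they were 490 with MePipHCA and 107 with GW3965, in place of 286 and 63. DESeq2 gave 85 with desmosterol and 201 with T0901317, and 1 depth gave 30 with desmosterol. With GW3965, 48 genes were higher and 15 lower as reported, 89 and 74 with no filter, and 68 and 39 with only the compared groups. Leaving out 1 library gave 15 to 41 with desmosterol, 0 to 27 with DMHCA, 114 to 207 with MePipHCA, 28 to 54 with GW3965 and 48 to 107 with T0901317. The causes of these shifts in counts were not tested.

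Replicate numbers are shared between groups, but same-numbered libraries did not deviate together (45 macrophage pairs, correlations of -0.071 to 0.142, 2 of them over 0.1; 30 hepatocyte pairs, -0.022 to 0.062). With a replicate block the members called stayed at 4, 5, 7, 8 and 6 with desmosterol, DMHCA, MePipHCA, GW3965 and T0901317 in macrophages, and DMHCA in hepatocytes went to 1 gene in place of 0. Macrophage levels rest on at least 202 counts per library for Fcgr1, whereas hepatocyte values of Fcgr1 and Spi1 rest on so few counts that they could not be tested.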
